A study of Bos taurus with 13 samples.

Results

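The 5 microRNAs described here are bta-miR-23a, bta-miR-23b-3p, bta-miR-27a-3p, bta-miR-27b and bta-miR-24-3p, chosen by name from the 311 miRNAs listed in the extracellular vesicles (EVs) of bovine follicular fluid. All 5 were listed in each of the 13 libraries. Each library was made from EVs of pooled follicular fluid, which had been taken by ovum pick-up from large follicles of Holstein Friesian cows and heifers. EVs are small membrane-bound particles released by cells, here collected by ultracentrifugation, so the values are abundances of miRNA outside cells. The transient cows (TCs) were in negative energy status at weeks 5 and 6 after calving (3 libraries, 11 cows) and in positive status at weeks 9 and 10 (3 libraries, 7 cows). Always negative cows (ANCs) and always positive cows (APCs), whose status stayed negative or positive throughout, were both sampled at weeks 5 and 6, each with 2 libraries from 2 cows. The 3 libraries of 8 heifers, which had not calved, came from 5 consecutive weeks of collection and formed the unstressed, non-lactating control. The sources used here do not say which animals went into which pool or if early and late TC pools hold the same cows, so the p-values measure only the spread between pools. Fluid from cystic ovaries or containing blood had been discarded before pooling.

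These miRNAs come from a pair of paralogous clusters. In the RefSeq annotation (assembly ARS-UCD2.0, used for names and order only), MIR23A, MIR27A and MIR24-2 follow each other, and MIR23B, MIR27B and MIR24-1 follow each other inside AOPEP, an aminopeptidase gene. Members of such a cluster are cut from a shared primary transcript, and each mature strand is then loaded into Argonaute and kept or lost at its own rate. miR-23 and miR-24 are known in blood vessel growth and cell survival, and miR-27 as a brake on adipocyte formation and lipid uptake. The mature forms of miR-23a and miR-23b, and of miR-27a and miR-27b, are near-identical, with the same seed within each pair, so the division of reads within a pair is uncertain. miR-24-3p is made by both clusters and cannot be assigned to either.

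Depth and scaling set the precision of what follows. The libraries held between 145030 and 421435 miRNA reads (median 327359), and 3 reads, taken as the limit of detection, stood at 7.9 to 19.0 CPM, the reads of a miRNA scaled to a common library total. The members lay far above that limit and together held 3.13% of the reads in heifer replicate 2 (95% Wilson interval 3.07 to 3.18) and 9.72% in TC replicate 3 at weeks 5 and 6 (9.63 to 9.82), intervals that cover counting error only. Levels below are CPM after TMM scaling of all 13 libraries together, whereas fold changes were fitted on the libraries of each comparison. The TMM factors were lowest in APC replicate 2 (0.711), in TC replicate 3 at weeks 5 and 6 (0.803) and in APC replicate 1 (0.891), which were also the libraries richest in miR-23. The 7 miRNAs of the granulosa list that were listed in all groups, such as miR-132 and miR-424-5p, were summed to between 5154 and 15197 CPM in a library, so miRNAs associated with follicle cells were present in each pool.

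miR-23a was the most abundant of the 5 in APCs, at 43765 and 51086 CPM in replicates 1 and 2. Its levels were 13492, 8736 and 16517 CPM in heifers and 8110 and 27336 CPM in ANCs. TCs stood at 22077, 13782 and 45787 CPM at weeks 5 and 6 and at 6209, 20218 and 9330 CPM at weeks 9 and 10. Both APC libraries thus lay above every heifer, ANC and late TC library, while TC replicate 3 at weeks 5 and 6 reached the APC range. Such a lack of overlap held for 34.3% of all miRNAs tested between APCs and heifers and for 44.9% between ANCs and APCs. The overlap with early TCs depended on scaling, and was absent when only the libraries of APCs and early TCs were scaled together. The group means were 47426 ± 5177 CPM in APCs (SD, n = 2), 27215 ± 16609 CPM in TCs at weeks 5 and 6 (SD, n = 3) and 12915 ± 3923 CPM in heifers (SD, n = 3).

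miR-23b-3p followed the same order at slightly lower levels. It stood at 36046 and 40075 CPM in APCs, against 7868, 4327 and 11730 CPM in heifers and 6319 and 22449 CPM in ANCs. TCs had 16467, 7675 and 38099 CPM at weeks 5 and 6 and 3524, 12863 and 5752 CPM at weeks 9 and 10. Its range of 11.4-fold from the lowest to the highest library was the widest of the 5 members, and 92.7% of the 247 miRNAs compared over all libraries had a smaller SD on the log2(CPM + 5) scale. The other listed strand of its hairpin, bta-miR-23b-5p, had only 3 to 10 reads per library, too few to compare groups.

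miR-27a-3p was the rarest member, with 592 to 695 CPM in heifers and 970 to 1082 CPM in TCs at weeks 5 and 6, and these ranges did not overlap, as was so for 21.7% of the miRNAs tested between these groups. ANCs had 269 and 556 CPM, APCs 645 and 1600 CPM, and TCs at weeks 9 and 10 had 299, 975 and 517 CPM. Within APCs and within late TCs, the libraries were thus far apart.

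miR-27b was much more abundant than its paralog and the steadiest member. It stood at 10576, 9205 and 15240 CPM in heifers, 11676 and 10611 CPM in APCs, and 26337 and 15352 CPM in ANCs. TCs had 17296, 13797 and 15520 CPM at weeks 5 and 6 and 13422, 15961 and 21881 CPM at weeks 9 and 10. On this scale APCs, the group with the highest mean of miR-23, had the lowest mean of miR-27b and ANCs the highest. Groups next to each other in this order overlapped throughout, and the place of APCs below heifers depended on scaling. When only the libraries of APCs and heifers were scaled together, the log2 fold change of miR-27b in APCs was 0.12. Its 2.86-fold range was narrow, with 20.2% of the 247 miRNAs showing a smaller SD.

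miR-24-3p, shared by both clusters, had 15168, 12471 and 20691 CPM in TCs at weeks 5 and 6 and 6509, 6808 and 11059 CPM in heifers. ANCs stood at 9072 and 11529 CPM, APCs at 6577 and 16729 CPM, and late TCs at 5445, 12469 and 12095 CPM. Early TCs had the highest mean, and their values did not overlap with those of heifers, as held for 21.7% of the 230 miRNAs tested between these groups. The lowest early TC library was level with the highest late TC library, and APCs overlapped with every group.

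**Figure D1:**
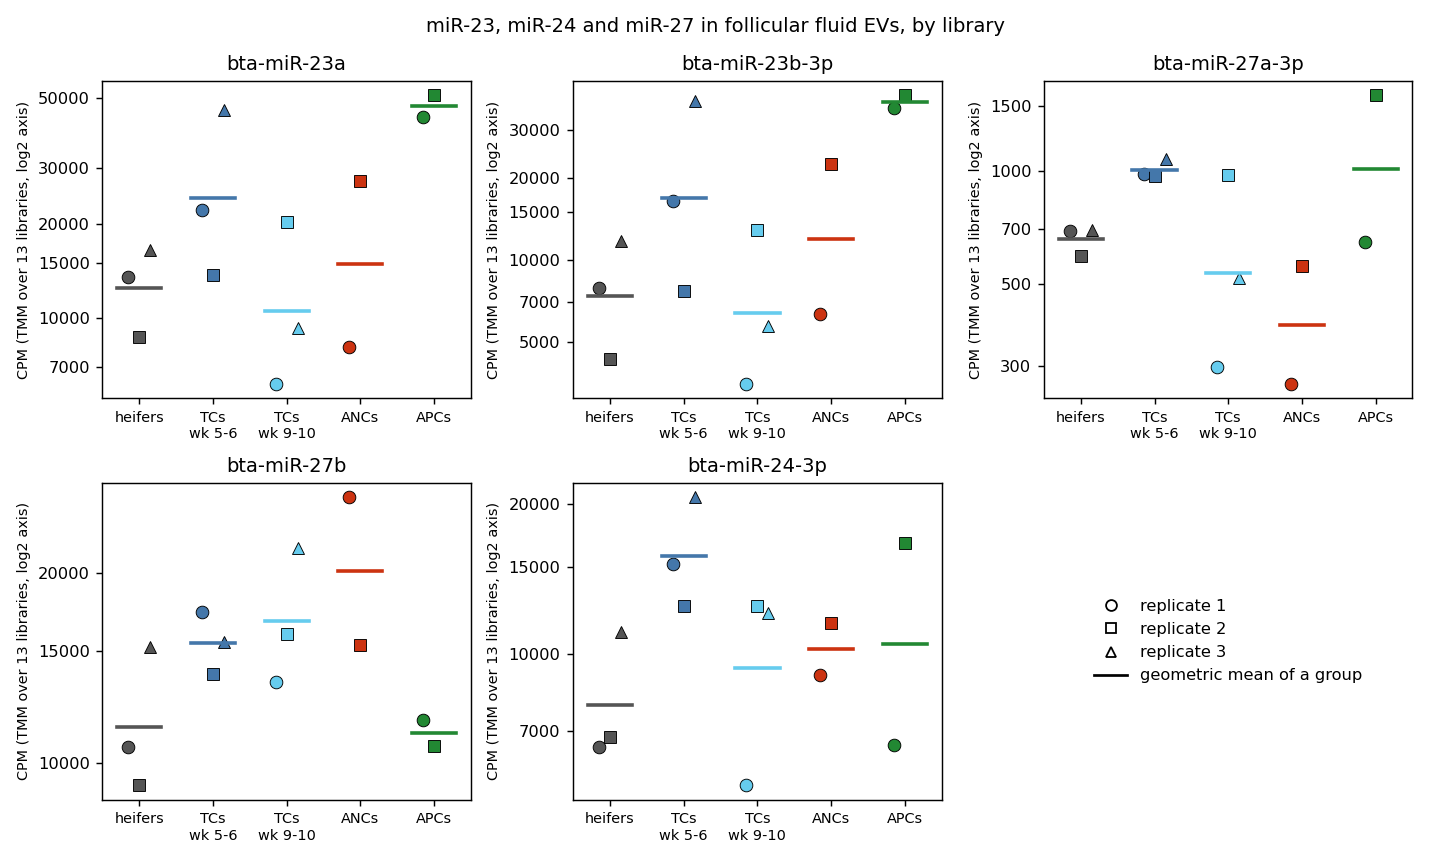
Level of each miRNA in every library (CPM on a log2 axis, scaled over 13 libraries). Points are libraries, symbols are replicate numbers and bars are geometric means of a group. Both APC libraries are above all heifer libraries for miR-23a and miR-23b-3p, whereas APCs lie within the heifer range for miR-27b. Values of APCs and heifers did not overlap for 34.3% of all miRNAs tested.

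APCs and heifers were both metabolically unstressed, and the paper used their comparison to study lactation. From these same libraries the paper already lists miR-23a and miR-23b-3p among the miRNAs higher in APCs. The heifers had also not calved, so lactation and calving cannot be told apart here. miR-23a was 4.22-fold higher in APCs (95% interval 2.24 to 7.94, log2 fold change 2.08, SE 0.385) and miR-23b-3p 5.75-fold higher (2.63 to 12.6, log2 fold change 2.52, SE 0.477). Both were called, with a limma adjusted p of 0.0528, at the thresholds used throughout (a log2 fold change of 1 or more in either direction, p under 0.05 and adjusted p up to 0.25). So 2 of the 5 members were called higher, against 9.44% of the 233 miRNAs tested (12.4% called in either direction). The 2 are near-identical paralogs with a Pearson's r of 0.99 over all libraries, so these are not independent calls. Their values did not overlap between the groups, as held for 34.3% of all miRNAs tested. miR-27a-3p (log2 fold change 0.78, 95% interval -0.27 to 1.83), miR-24-3p (0.57, -0.60 to 1.74) and miR-27b (0.12, -0.77 to 1.01) were not called, and the values of miR-24-3p and miR-27b turned to -0.02 and -0.47 when libraries were scaled by total reads. That scaling lowered the median log2 fold change of all miRNAs from 0.03 to -0.54 and changed the calls from 22 higher and 7 lower to 14 and 49, yet both miR-23 calls held, at 1.49 and 1.93. By the exact permutation test neither could go below p = 0.1, the smallest p that 2 against 3 libraries allow, and both reached it.

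**Figure D2:**
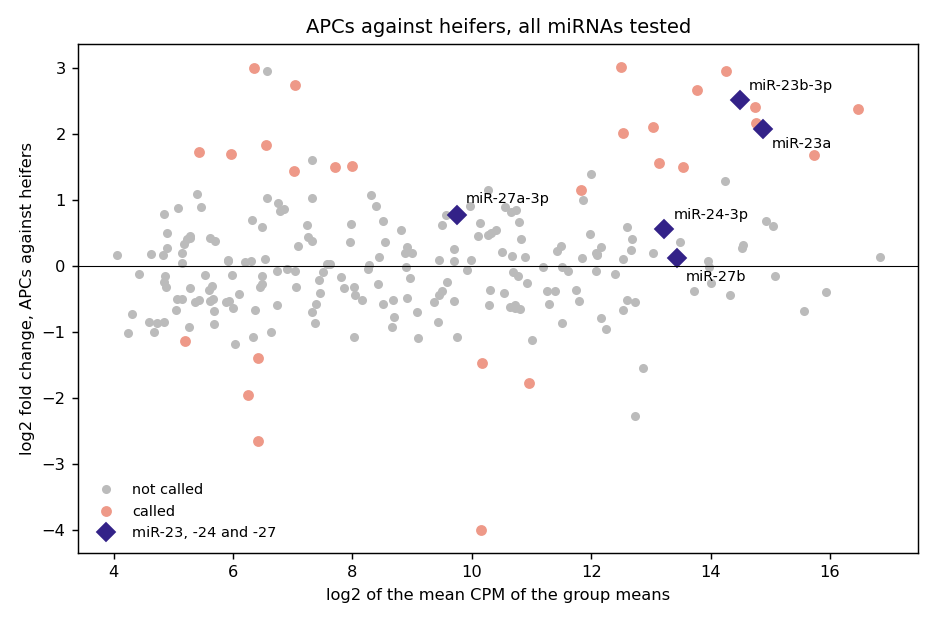
Log2 fold change of APCs against heifers (y axis) by mean abundance (x axis, log2 CPM) for the 233 miRNAs tested. Diamonds mark the 5 members: miR-23a and miR-23b-3p lie among the called miRNAs at 2.08 and 2.52. miR-27a-3p (0.78), miR-24-3p (0.57) and miR-27b (0.12) were not called. The values of miR-24-3p and miR-27b turn below 0 under scaling by total reads.

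The miR-23 calls in APCs rested on each library to an unequal degree. Without heifer replicate 1, the shallowest of the heifer libraries, miR-23a kept its log2 fold change (2.09) but its limma adjusted p rose to 0.255, and 1 member was called. Without APC replicate 1, in which miR-27a-3p and miR-24-3p were low, 4 members were called, with log2 fold changes of 2.17 for miR-23a, 2.58 for miR-23b-3p, 1.41 for miR-27a-3p and 1.22 for miR-24-3p.

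Markers of other cells were examined beside this comparison. The erythroid list (miR-451, miR-486 and miR-144, of which 2 were tested) summed to 2137 and 8934 CPM in APCs and to 1717 to 3958 CPM in heifers, with no call. The leukocyte list summed to 2144 and 3971 CPM in APCs and to 4868 to 6077 CPM in heifers, with 0 of 5 called. Of the 7 epithelial miRNAs, bta-miR-184 (log2 fold change -3.99) and bta-miR-205 (-1.77) were called lower in APCs, and neither of the 2 endothelial miRNAs nor any of the 7 granulosa miRNAs tested was called. miR-23a is a common reference for haemolysis checks against the red cell miRNA miR-451, but the level of miR-23a itself varied 8.23-fold here. Over the 13 libraries Pearson's r between these was 0.27, a value that does not measure haemolysis. The part of any of these cells in the miR-23 result was not tested. Of the markers listed in all groups, none was at 0 in an APC or heifer library.

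The other miRNAs of adipogenesis and angiogenesis that were called in APCs against heifers were all higher. Of all 233 miRNAs tested there, 9.44% were called higher. Of 8 tested miRNAs of the adipogenesis and lipid list, 3 were called higher and 0 lower: bta-miR-103 (log2 fold change 2.16) and bta-miR-107 (2.41), near-identical regulators of insulin sensitivity, and bta-miR-130a (2.67), a repressor of the adipocyte factor PPARG. Over all libraries miR-103 and miR-107 had a Pearson's r of 0.997 with each other and of 0.97 to 0.98 with the miR-23 pair. Their calls are thus independent neither of each other nor of the miR-23 calls. The median of the list was 0.62, against 0.03 for all miRNAs tested. Of 12 angiogenesis miRNAs, which share miR-130a with that list, 2 were called higher (miR-130a and bta-miR-296-3p at 1.15) and 0 lower, with a median of 0.29.

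TCs at weeks 5 and 6 were compared with heifers to set lactation with negative energy status against the unstressed control. miR-24-3p was 2.04-fold higher (95% interval 1.20 to 3.47, log2 fold change 1.03, SE 0.323, limma adjusted p = 0.241) and was called, so 1 of 5 members was called higher, against 2.61% of 230 miRNAs (6.52% called in either direction). miR-27a-3p, which did not overlap between the groups, was 1.57-fold higher (1.09 to 2.25) and fell short of the fold threshold (adjusted p = 0.252 by limma). miR-23a (log2 fold change 0.98, 95% interval -0.17 to 2.13), miR-23b-3p (1.23, -0.28 to 2.74) and miR-27b (0.47, -0.17 to 1.12) were not called, and for miR-23b-3p the log2 fold change was 0.69 without TC replicate 3 and 1.89, called, without TC replicate 2. In this comparison same-numbered pools deviated together, and with the replicate number as a block 2 members were called, miR-24-3p and miR-23b-3p, both with a limma adjusted p of 0.0433, among 34 miRNAs called in all. With a term for the day on which RNA was measured, 0 members and 0 of 230 miRNAs were called by limma (29 at an unadjusted p under 0.05). The miR-24-3p call was also lost with total read scaling (log2 fold change 0.79, with 4 miRNAs higher and 22 lower in place of 6 and 9), and without TC replicate 1 or 3 or heifer replicate 1 or 2 (0.89 to 1.09).

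In that comparison the leukocyte list had 0 higher and 2 of 5 lower (miR-155 and miR-223), with sums of 2762 to 3063 CPM in TCs and 4868 to 6077 CPM in heifers, and its part in the miR-24-3p result was not tested. The adipogenesis and lipid list had 2 of 8 higher (miR-130a and miR-375) and 0 lower, and the angiogenesis list had 1 higher (miR-130a) and 1 lower (miR-18a) of 12.

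TCs at weeks 9 and 10, ANCs and the pooled cows gave no called member against heifers. In late TCs the log2 fold changes against heifers ran from -0.27 for miR-27a-3p to 0.59 for miR-27b, and limma called 0 of 227 miRNAs (0%), with 23 at an unadjusted p under 0.05, edgeR called 0 and DESeq2 called 14. In ANCs, where 19.1% of 215 miRNAs were called, miR-27b came nearest, with a log2 fold change of 0.89 (95% interval 0.03 to 1.75, limma adjusted p = 0.208), short of the fold threshold. The ANC values of miR-23a and miR-23b-3p depended on the library: against heifers miR-23a was at 1.24 without ANC replicate 1 and at -0.54 without ANC replicate 2, and miR-23b-3p was at 1.72 and -0.14. Without ANC replicate 2, miR-27b (1.29) and miR-27a-3p (-1.19) were called, and without heifer replicate 3 miR-27b (1.12). Cell markers moved with this comparison too, with 5 of 5 leukocyte, 2 of 2 erythroid and 5 of 7 epithelial miRNAs lower, 3 of 7 granulosa miRNAs higher and 1 lower, and miR-451 at 0 reads in ANC replicate 1; their part in the miR-27 values was not tested. Over all cows against heifers 7.29% of 247 miRNAs were called, and miR-23b-3p stood at 1.07 (95% interval -0.13 to 2.26, limma adjusted p = 0.313). It was called without early TC replicate 2 or without ANC replicate 1.

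**Figure D3:**
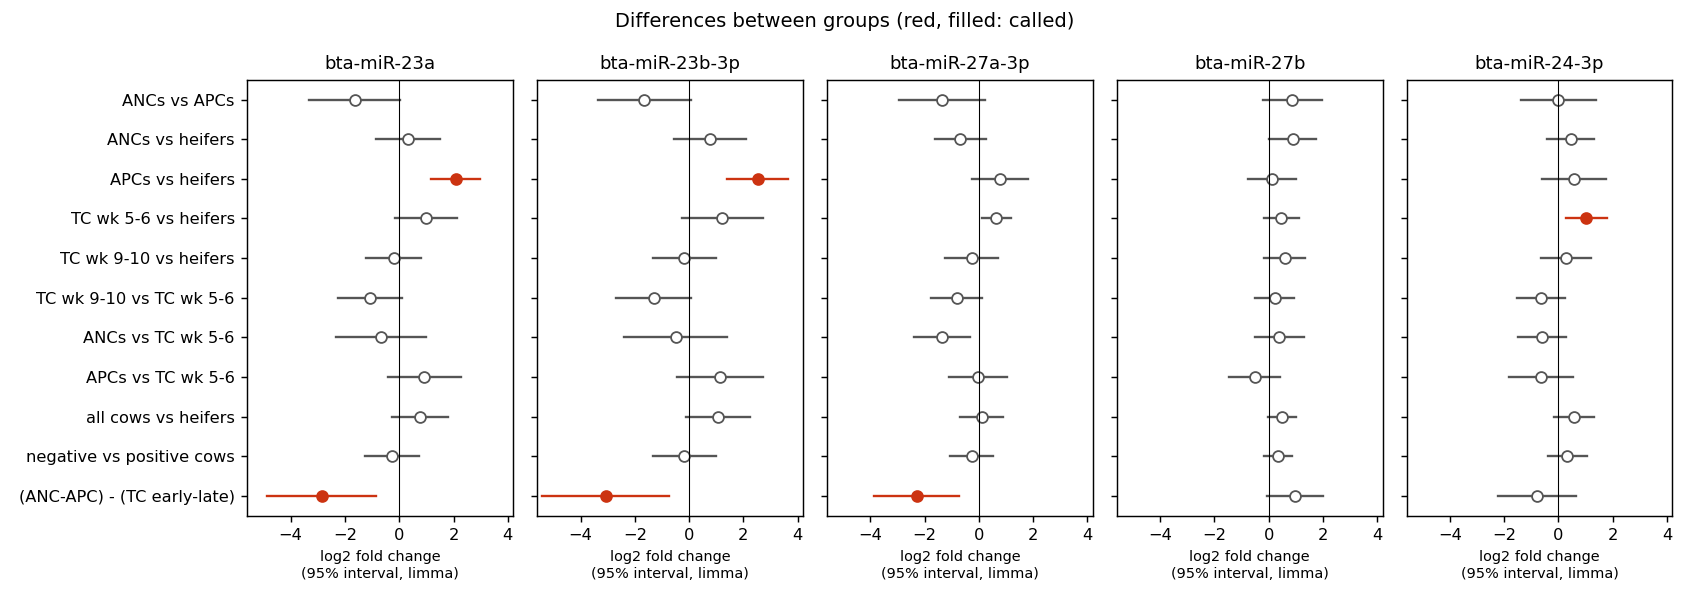
Log2 fold change of each member (x axis, dot) with its 95% limma interval (line) in each comparison (y axis). Filled red symbols are called: miR-23a and miR-23b-3p in APCs against heifers, miR-24-3p in early TCs against heifers, and miR-23a, miR-23b-3p and miR-27a-3p for the difference between the energy contrasts.

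ANCs and APCs, sampled at the same weeks, were compared for the effect of lasting energy status. miR-23a was at 8110 and 27336 CPM in ANCs and 43765 and 51086 CPM in APCs, a log2 fold change of -1.64 (95% interval -3.31 to 0.03), and miR-23b-3p was at -1.65 (-3.36 to 0.07). miR-27a-3p was at -1.35 (-2.95 to 0.24), miR-27b at 0.88 (-0.23 to 1.98) and miR-24-3p at -0.01, a value that became 0.41 under total read scaling. None was called, and limma called 0 of 207 miRNAs (0%), with 16 at an unadjusted p under 0.05, while edgeR called 0 and DESeq2 called 6, none of them a member. The values of 4 of the 5 members did not overlap between ANCs and APCs, but 44.9% of all 207 miRNAs did not overlap either. Without ANC replicate 2, miR-23a (-2.61) and miR-23b-3p (-2.66) were called, and without APC replicate 1 miR-27a-3p (-1.99) was called.

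Within the TCs, early and late samples differed in both energy status and week, and these cannot be told apart. From weeks 5 and 6 to weeks 9 and 10 the log2 fold change was -1.09 for miR-23a (95% interval -2.27 to 0.10), -1.30 for miR-23b-3p (-2.69 to 0.09), -0.81 for miR-27a-3p (-1.76 to 0.13), -0.65 for miR-24-3p (-1.52 to 0.23) and 0.22 for miR-27b (-0.51 to 0.95). None was called, and limma called 0 of 224 miRNAs (0%), with 13 at an unadjusted p under 0.05, while edgeR called 0 and DESeq2 called 7, none of them a member. Without early TC replicate 2, the early library with the least miR-23, 2 members were called. ANCs and APCs against early TCs gave 0 of 225 miRNAs called by limma in each (0%), with 18 and 6 at an unadjusted p under 0.05. There, edgeR called 0 and 0 and DESeq2 0 and 1. The lowest of the ANC values was that of miR-27a-3p, at -1.36 (-2.37 to -0.34, limma adjusted p = 0.402), which was called without ANC replicate 2 (-1.89).

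Whether the negative minus positive contrast differed between cows of fixed and of changing status was tested in a fit of all 13 libraries. For miR-23a the ANC minus APC difference on the common scale was -1.67 and the late minus early TC difference was -1.19, so that the mean of the negative group was below that of the positive group among always cows and above it among TCs. The difference of these contrasts, always minus transient cows, was -2.85 for miR-23a (SE 0.918), -3.07 for miR-23b-3p (SE 1.07) and -2.29 for miR-27a-3p (SE 0.715). All 3 were called, each with a limma adjusted p of 0.204, against 8.5% of 247 miRNAs called in that direction and 15.8% in either. The miR-23a and miR-23b-3p calls are those of near-identical paralogs and are not independent. miR-24-3p (-0.78, 95% interval -2.23 to 0.66) and miR-27b (0.97, -0.06 to 1.99) were not called. Total read scaling raised the median of all miRNAs from 0.00 to 0.66 and changed the calls from 18 higher and 21 lower to 52 and 10, with miR-23a at -2.16, miR-23b-3p at -2.38 and miR-27a-3p at -1.60, all still called, and with miR-27b, at 1.67, called as a 4th member in the opposite direction. No member was called any longer without early TC replicate 1 or 3, late TC replicate 1 or 3, ANC replicate 1, APC replicate 2 or heifer replicate 1, with values of -3.09 to -1.70 and limma adjusted p from 0.266 to 0.584. Averaged over both kinds of cow, negative against positive status gave 0 members called, against 0.405% of 247 miRNAs, with log2 fold changes from -0.27 for miR-23a to 0.33 for miR-27b.

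In that contrast of contrasts the adipogenesis and lipid list had 0 of 8 higher and 3 lower (miR-103, miR-107 and miR-130a), the angiogenesis list 0 of 12 higher and 2 lower (miR-130a and miR-221), and the leukocyte list 0 of 6 higher and 1 lower (miR-150). The erythroid, epithelial, endothelial and granulosa lists had no call, and miR-451 of the erythroid list was the miRNA called lower in negative than in positive status. The part of red and white blood cells in these values was not tested.

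Ratios of members within a library do not depend on scaling. The ratio of miR-23b-3p to miR-27b, whose genes are neighbours, was 3.09 and 3.78 in APCs and 0.744, 0.470 and 0.770 in heifers. ANCs had 0.240 and 1.46, early TCs 0.952, 0.556 and 2.46, and late TCs 0.263, 0.806 and 0.263. The more abundant product of the cluster thus differed between libraries, from miR-27b in ANC replicate 1 (95% counting interval of the ratio 0.227 to 0.253) to miR-23b-3p in APC replicate 2 (3.63 to 3.93). In the other cluster miR-23a exceeded miR-27a-3p in every library, by 31.9 and 67.8 times in APCs and by 14.8 to 23.8 times in heifers. The sum of both miR-23 forms over miR-24-3p was 12.1 and 5.45 in APCs and 1.92 to 3.28 in heifers, without overlap. The same held between these groups for miR-23a over miR-23b-3p, miR-23a over miR-27a-3p and miR-23b-3p over miR-27b. Each of these ratios had an adjusted p of 0.711 by the exact permutation test.

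Between paralogs the picture differed. miR-23a exceeded miR-23b-3p by 1.20 to 2.02 times in all 13 libraries. miR-27a-3p was always rarer than miR-27b, by 6.63 times in APC replicate 2 and by 97.8 times in ANC replicate 1 (95% counting interval 77.0 to 124). The miR-27 pair thus varied far more in its proportions than the miR-23 pair. Of 50 comparisons of ratios between groups, 0 passed by the exact permutation test, with 0 at an unadjusted p under 0.05 and a lowest adjusted p of 0.711, and those with 2 or 3 libraries a side could not go below 0.1. Against heifers, APCs differed in log2 ratio by 2.40 for miR-23b-3p over miR-27b and by 1.29 for miR-23a over miR-27a-3p, each with an exact p of 0.1.

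**Figure D4:**
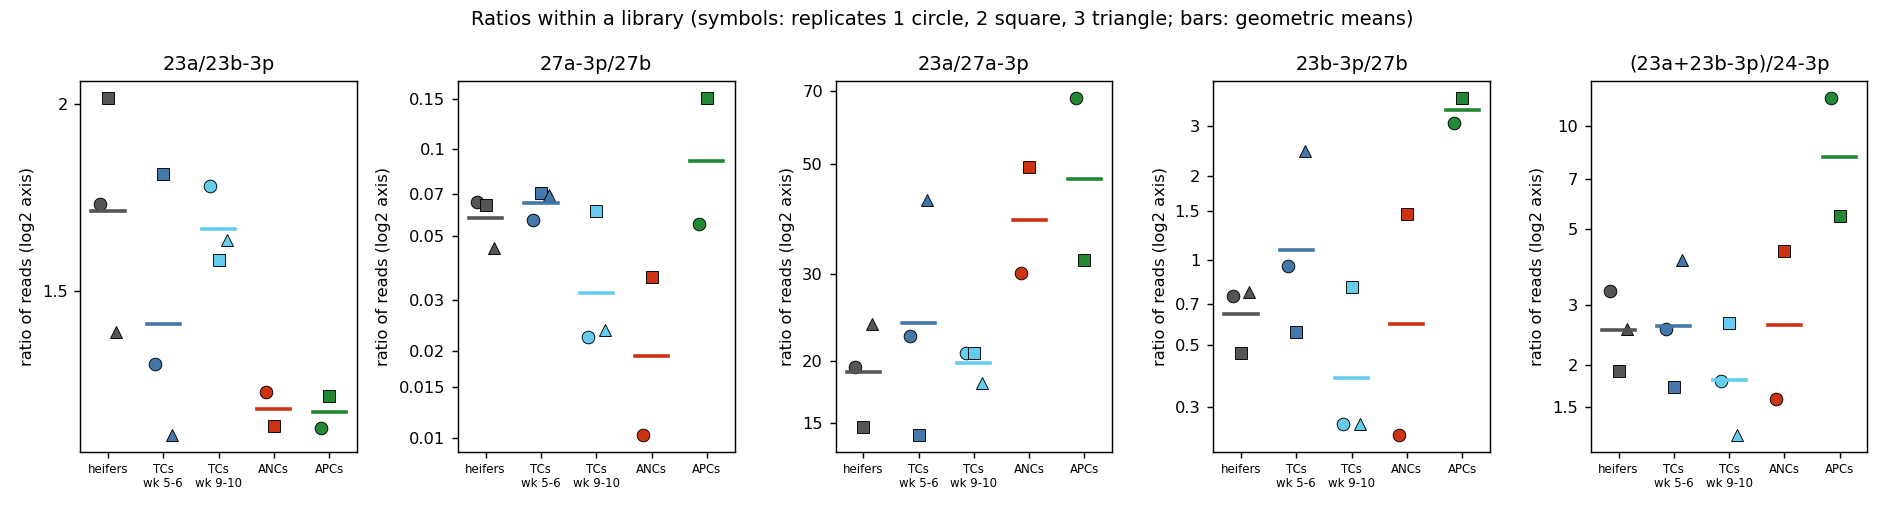
Ratios of reads within a library (y axis, log2 axis) by group, with symbols for replicates and bars for geometric means. The ratio of miR-23b-3p to miR-27b is above 3 in both APC libraries and below 1 in all heifers, and miR-23a to miR-23b-3p stays between 1.20 and 2.02.

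Over the 13 libraries, which share their groups and their depth, the abundance patterns of the members separated as follows. miR-23a and miR-23b-3p were most like each other (Pearson's r 0.99, Spearman's rho 0.98), followed for both by miR-107 and miR-103, at r from 0.97 to 0.98. The division of reads within the near-identical miR-23 pair is uncertain, and its part in their likeness was not tested. miR-27a-3p was most like miR-221 (0.91), a vascular miRNA, then miR-145 (0.85) and miR-130b (0.84), and miR-24-3p was most like miR-29a (0.87), a regulator of collagen genes, miR-29c (0.86) and miR-145 (0.82). miR-27b was most like miR-497 (0.92), of the miR-15 and miR-16 family, miR-6123 (0.79) and miR-92a (0.72). Without the 2 most distant libraries r stayed at 0.983 for miR-23a with miR-23b-3p, 0.86 for miR-27a-3p with miR-221 and 0.847 for miR-27b with miR-497, and fell to 0.596 for miR-27b with miR-6123 and to 0.496 with miR-92a.

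Members of the same cluster were not always alike. miR-23a and miR-27a-3p had an r of 0.74, and miR-27a-3p was the 24th most similar of 246 miRNAs to miR-23a. miR-23b-3p and miR-27b had an r of -0.14, and miR-27b was in place 130. The near-identical miR-27a-3p and miR-27b had an r of -0.39, against 0.99 for the near-identical miR-23 pair. miR-24-3p lay between both sides, with 0.57 to miR-23a, 0.58 to miR-23b-3p, 0.68 to miR-27a-3p and 0.32 to miR-27b.

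**Figure D5:**
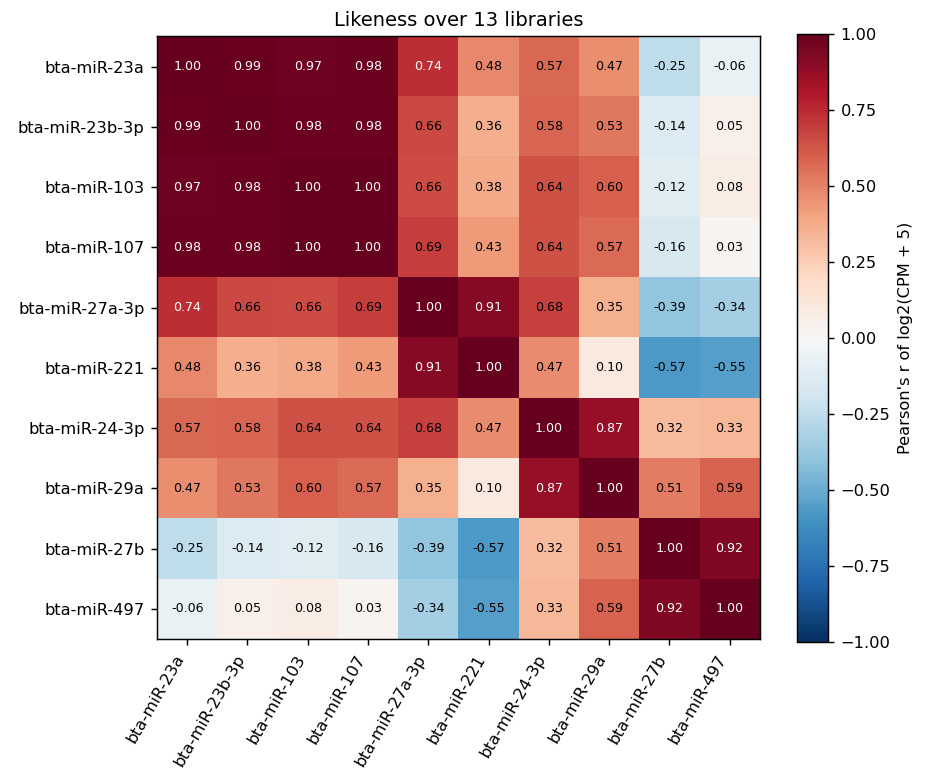
Pearson's r of log2(CPM + 5) over 13 libraries between the 5 members and the miRNAs most like them, from blue (-1) to red (1). miR-23a, miR-23b-3p, miR-103 and miR-107 form a block with r of 0.97 or more, while miR-27b pairs with miR-497 and is negative to miR-23 and miR-27a-3p.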

How the data were processed

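Small RNA of EVs was sequenced after preparation with the QIAseq miRNA kit. The authors trimmed adaptors (Cutadapt 1.11), mapped reads to UMD3.1 (Bowtie2 2.2.2), annotated them with miRBase and deposited TMM-normalized CPM (edgeR). In the libraries whose totals exceed those of plain CPM after TMM, the deposited values, made in the same way, were handled as a normalized signal. Because the values step by what 1 read is worth, whole reads were recovered here, with 3681 of 3681 values within 0.1 read of a whole number.

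Reads were rescaled by TMM (edgeR 4.0.16) over the libraries of each comparison, filtered (filterByExpr, minimum count 10, minimum total 15) and tested with limma 3.58.1 (trend) on log2(CPM + 5). Fold changes are on that scale, which understates those of low miRNAs. Adjusted p-values are Benjamini-Hochberg over all miRNAs tested. Comparisons pooling cows used 1 fit of 13 libraries with 5 group means. Ratios and single members were tested by two-sided exact permutation, adjusted over 50 tests. Alternatives were DESeq2 1.42.0 and edgeR quasi-likelihood on recovered reads, other scalings, a pseudocount of 1, no filter and a replicate block. Further ones were the day of RNA measurement (only in comparisons without APCs), all libraries in 1 fit, and leaving out each library.

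The main fits did not pair replicate numbers, and the replicate block was run only as an alternative. In early TCs against heifers the deviations of same-numbered pools correlated in each of 3 pairs (r = 0.188, 0.372 and 0.371 over 247 miRNAs). In ANCs against APCs r was 0.255 in each pair, which 2 libraries a group make equal. Members, lists (erythroid, leukocyte, epithelial, endothelial, granulosa, angiogenesis, adipogenesis and lipid metabolism) and tests were chosen with earlier results of these data known. Named miRNAs are the members, listed strands of their hairpins, the 3 miRNAs most correlated with each, and called list members. Mature sequences are not printed here. The procedure was tested on simulated data.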

Additional observations from a re-analysis of the deposited data

Results flagged for a closer look

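The contrast of negative with positive energy status differed between always and transient cows for 3 members, by -2.85 for miR-23a, -3.07 for miR-23b-3p and -2.29 for miR-27a-3p on the log2 scale (limma adjusted p = 0.204 for each, called). All 3 calls were lost when any of 7 libraries was left out, and the TC samples differed in week as well as in energy status, so these cannot be told apart.

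Among the 5 libraries of negative cows, the ratio of miR-23a to miR-23b-3p was set apart in replicate 2 of the TCs at weeks 5 and 6, at 1.80 against 1.20 to 1.34 in the others. The gap was 0.728 of the range of the group, above the 95% critical value of Dixon's test. Of 33 such groups examined 1 passed, and chance alone passes about 1 in 20.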

How the results depend on the processing

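The calls of miR-23a and miR-23b-3p in APCs against heifers held in all 8 alternatives fitted there that left out no library. Their log2 fold changes were 1.49 to 2.31 and 1.93 to 2.89. The day of RNA measurement was not among these alternatives, as it was not fitted for any comparison that included APCs. The miR-24-3p call in early TCs against heifers was close to the adjusted p threshold. The number of members called there was 0 with total reads, a pseudocount of 1, no filter, all 13 libraries or the measurement day, 3 with DESeq2 and 2 with the replicate block. Libraries left out gave 0 to 3 members there, 1 to 4 for APCs against heifers, and 0 to 4 for the difference of the energy contrast, which had 3 in the main analysis. They gave 0 to 2 members, from 0, for ANCs against APCs, ANCs against heifers and late against early TCs, and 0 to 1 for ANCs against early TCs and all cows against heifers. DESeq2 and the replicate block each called 1 member (miR-23b-3p) for all cows against heifers. The block called 2 for ANCs against heifers, where r between deviations of same-numbered pools was 0.106 and -0.026. The block changed no other count of members called by over 1.5 times. The cause of these changes was not tested.

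None of the values that changed sign was called in the main analysis. With total reads they were 0.41 for miR-24-3p (ANCs against APCs), -0.02 and -0.47 for miR-24-3p and miR-27b (APCs against heifers) and -0.10 for miR-27a-3p (all cows against heifers). For miR-27a-3p in APCs against early TCs (-0.04), they were 0.05 with DESeq2 size factors, 0.06 without a filter, 0.08 with edgeR, 0.19 with DESeq2 and 0.10 with all 13 libraries. miR-23b-3p was at 0.08 with the block in ANCs against early TCs, and at 0.05 (edgeR) and 0.04 (DESeq2) for negative against positive status. Leaving out libraries gave, for ANCs against APCs, -0.67 to 0.62 for miR-24-3p, and for ANCs against heifers, -0.54 to 1.24 for miR-23a and -0.14 to 1.72 for miR-23b-3p. For APCs against heifers it gave -0.05 to 1.22 for miR-24-3p and -0.02 to 0.33 for miR-27b. For late TCs against heifers it gave -0.64 to 0.21 for miR-23a, -0.66 to 0.18 for miR-27a-3p and -0.64 to 0.29 for miR-23b-3p, and against early TCs -0.07 to 0.35 for miR-27b. For ANCs against early TCs it gave -1.57 to 0.20 for miR-23a and -1.42 to 0.43 for miR-23b-3p, and for APCs against early TCs -0.56 to 0.70 for miR-27a-3p and -1.18 to 0.12 for miR-24-3p. For all cows it gave -0.06 to 0.25 for miR-27a-3p, and for negative against positive status -0.76 to 0.20 for miR-23a, -0.57 to 0.04 for miR-27a-3p and -0.67 to 0.32 for miR-23b-3p. A fit that left 1 library in a group assumed that it varied like the others.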
